A study of Rattus norvegicus with 99 samples.

Results

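The troponin and tropomyosin genes of the rat heart were followed through pressure overload of either ventricle. They were taken by symbol from the deposited table of whole heart tissue, which lists 17337 genes, and all 8 genes sought were found: the troponin I genes Tnni1 (NCBI gene 29388) and Tnni3 (29248), the troponin T genes Tnnt1 (171409) and Tnnt2 (24837), the troponin C gene Tnnc1 (290561) and the tropomyosin genes Tpm1 (24851), Tpm2 (500450) and Tpm3 (117557). All 8 genes passed the filter on low counts in every comparison. From 33 male rats, F1 offspring of a Wistar Kyoto and Lewis cross, 1 library of polyadenylated RNA each came from the right ventricle (RV), the left ventricle (LV) and the septum between them (Spt), 99 libraries in all. A clip that did not constrict at surgery was placed around the pulmonary artery (PAB, which loads the RV) or the aorta (AOB, which loads the LV), and control animals had sham surgery.

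At the compensated stage of hypertrophy (H) the animals were 11 weeks old, 7 weeks after surgery, with 7 animals each in Sham-H, PAB-H and AOB-H. At the stage of heart failure (F), the 3 PAB-F and 2 Sham-RF animals were 27 weeks old, 21 weeks after surgery, and the 4 AOB-F and 3 Sham-LF animals were 30 weeks old, 24 weeks after surgery. With 3 chambers this gives 21 groups. Each library was made from a piece of heart wall with all of its cell types, so that fewer cells of a type and less RNA per cell cannot be told apart.

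Troponin and tropomyosin form the calcium switch of the thin filament. Calcium binds to troponin C, troponin I then releases its hold on actin, and troponin T passes the change to tropomyosin, which moves aside so that myosin can bind. Heart muscle exchanges subunits during development: Tnni1 encodes the slow skeletal troponin I that fetal heart uses before Tnni3, the cardiac form, takes over around birth. Tnnt2 encodes cardiac and Tnnt1 slow skeletal troponin T, Tnnc1 encodes the troponin C shared by heart and slow skeletal muscle, and Tpm1 encodes the alpha-tropomyosin that dominates in rodent ventricle, while Tpm2 encodes beta-tropomyosin, known from fetal heart and skeletal muscle, and Tpm3 the tropomyosin of slow skeletal muscle as well as forms of the cytoskeleton. Counts were made per gene, so that splice forms of a gene, including the muscle and cytoskeletal forms of the tropomyosin genes, were not separated.

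A cardiac and a slow skeletal gene of this set lie next to each other in the genome. In RefSeq on the GRCr8 assembly, Tnnt1 is the next protein-coding gene after Tnni3 on chromosome 1, on the same strand, and only Lad1 lies between Tnni1 and Tnnt2 on chromosome 13. A promoter window of 300 bases, from 250 before to 50 after the annotated start, was found for 7 of the 8 genes. The windows of Tnni3, Tnnt1 and Tnni1 are shown because these genes had the widest ranges of level in the comparisons that follow. Capitals mark 4 short motifs searched on both strands, the TATA box TATAAA, the GATA factor motif GATAAG, the M-CAT core GGAATG and the CACCC box. A motif on the minus strand shows as its reverse complement, so that a CACCC box there reads GGGTG.
Tnni3 (chr1:78342321-78342620, + strand): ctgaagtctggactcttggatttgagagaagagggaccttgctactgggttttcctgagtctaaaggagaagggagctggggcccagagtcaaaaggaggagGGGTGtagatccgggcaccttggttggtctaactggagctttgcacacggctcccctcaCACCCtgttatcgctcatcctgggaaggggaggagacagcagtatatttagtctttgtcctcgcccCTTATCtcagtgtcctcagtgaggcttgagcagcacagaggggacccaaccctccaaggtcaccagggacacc
Tnnt1 (chr1:78348785-78349084, + strand): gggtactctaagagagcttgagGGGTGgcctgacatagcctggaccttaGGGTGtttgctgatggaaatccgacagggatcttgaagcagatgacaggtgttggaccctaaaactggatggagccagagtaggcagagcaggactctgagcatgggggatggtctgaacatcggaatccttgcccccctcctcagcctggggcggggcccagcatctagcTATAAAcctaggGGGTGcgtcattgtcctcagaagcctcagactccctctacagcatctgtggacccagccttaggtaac
Tnni1 (chr13:49781279-49781578, + strand): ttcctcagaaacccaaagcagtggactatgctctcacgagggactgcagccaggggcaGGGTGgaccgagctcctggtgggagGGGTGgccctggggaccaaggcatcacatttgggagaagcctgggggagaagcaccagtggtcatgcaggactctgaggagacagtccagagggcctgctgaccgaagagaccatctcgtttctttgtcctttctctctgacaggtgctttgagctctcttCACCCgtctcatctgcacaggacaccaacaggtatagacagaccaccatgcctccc
The GATA motif stands in the Tnni3 window on the minus strand, from -23 to -18 relative to the start, and 7.05% of 33469 rat promoter windows of this length hold it. A TATA box stands in the Tnnt1 window from -30 to -25, and 14.2% of all windows hold one. The CACCC box stands at 2 places in the Tnni3 window and at 3 in each of the others, and 54.9% of all windows hold it. The motif CANNTG (N for any base) was searched as well and is not in capitals. It stands at 3 places each in the Tnnt1 and Tnni1 windows and not in that of Tnni3, and 72.1% of all windows hold it. The Tnni1 window holds neither a TATA box nor a GATA motif of these letters. The M-CAT core stands in none of these 3 windows, but in 1 of 2 windows of Tnnt2 (-83 to -78) and in that of Tpm1 (-31 to -26), and in 14.2% of all windows. Motif matches are letters in these windows, and binding was not measured.

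Total counts per library ranged from 12.1 M to 24.2 M counts, with a median of 17.4 M, and between 3.56% and 6.18% of these counts belonged to the 8 genes. The 6 ventricular cardiomyocyte markers examined (Myh6, Myl2, Myl3, Actc1, Ryr2 and Pln) were detected in every group. Some libraries stood apart. The summed level of 6 skeletal muscle markers (Myh1, Myh2, Myh4, Mylpf, Actn3 and Pvalb) was 168 CPM (counts scaled to library size) in PAB-H LV replicate 4 and 53.2 CPM in Sham-H Spt replicate 2, whereas in the other 97 libraries it ranged from 0.352 to 7.17 CPM. In 3 animals (Sham-H replicate 6, PAB-H replicate 2 and AOB-H replicate 1) the difference between the libraries labelled RV and LV over 50 genes was opposite to that in the other 30 animals. Their labels were kept here, and whether the LV and RV libraries of these animals are exchanged was not tested. By the library numbers of the labels, 3 series can be told apart. Of the compensated-stage LV and RV libraries, 2 of each 7 are in series 1, while all failure-stage LV and RV libraries are in series 2 and all failure-stage Spt libraries in series 3.

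Among the 8 genes, those of the cardiac isoforms made up nearly all of the mRNA in each of the 99 libraries. Per length, in the deposited FPKM values (counts scaled to library depth and gene length), the median level over the 99 libraries was 17544 for Tnnt2, 11962 for Tnni3, 9619 for Tnnc1 and 4071 for Tpm1. It was 34.2 for Tpm2, 31.4 for Tpm3, 2.39 for Tnnt1 and 1.74 for Tnni1. Tnni1 and Tnnt1 rested on few reads, with 8 to 155 counts (median 24) and 18 to 346 counts (median 39) per library, so that their values carry wide counting errors.

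The share of each minor isoform in its own family, computed from FPKM among the 8 genes only, was below 2 percent throughout. Tnni1 held between 0.00614% and 0.103% of the sum of Tnni1 and Tnni3, with a median of 0.0139%. For Tnnt1 the share of the sum of Tnnt1 and Tnnt2 ranged from 0.00545% to 0.141%, with a median of 0.0133%. The highest values of both shares were those of PAB-H LV replicate 4, the library with the highest level of skeletal muscle markers, and without it and Sham-H Spt replicate 2 the highest shares were 0.0461% and 0.0394%. Tpm2 and Tpm3 had median shares of 0.774% and 0.765% of the sum of the 3 tropomyosin genes, with ranges of 0.517% to 1.59% and 0.384% to 1.21%.

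Levels between samples are given as CPM after TMM normalisation, which divides each count by the total of its library times a factor per library. That factor was 0.785 for Sham-H Spt replicate 5, the lowest of all, and 0.895 to 1.09 for the other 98 libraries. Over the 21 groups the mean level of Tnni3 varied most among the abundant genes, from 6649 ± 1365 CPM (SD, n = 4) in AOB-F LV to 14631 ± 3065 CPM (SD, n = 3) in Sham-LF RV, a 2.2-fold span. The span was 1.42-fold for Tnnt2, 1.36-fold for Tpm1 and 1.29-fold for Tnnc1. Like Tnni3, Tnnt2 and Tpm1 had their lowest group mean in AOB-F LV (16595 and 10349 CPM) and their highest in Sham-LF RV (23498 and 14088 CPM).

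Among the minor isoforms the group means of Tnni1 spanned 4.18-fold, from 0.813 CPM in Sham-RF LV to 3.40 CPM in Sham-LF RV. The span of Tnnt1 was 2.57-fold, up to 4.84 ± 7.35 CPM (SD, n = 7) in PAB-H LV, where 1 library decided the mean. For Tpm2 it was 1.60-fold, with the lowest mean in PAB-H Spt, and for Tpm3 1.38-fold, with the lowest mean in Sham-LF RV (75.5 CPM), the group that was highest for 5 other genes of the set. When the 21 groups were ordered by mean, each of the 20 pairs of neighbours lay within the larger of their SDs, for each of the 8 genes. Ordering by itself brings neighbours close, so this limits only the order of neighbours and not the ends of the range.

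**Figure D1:**
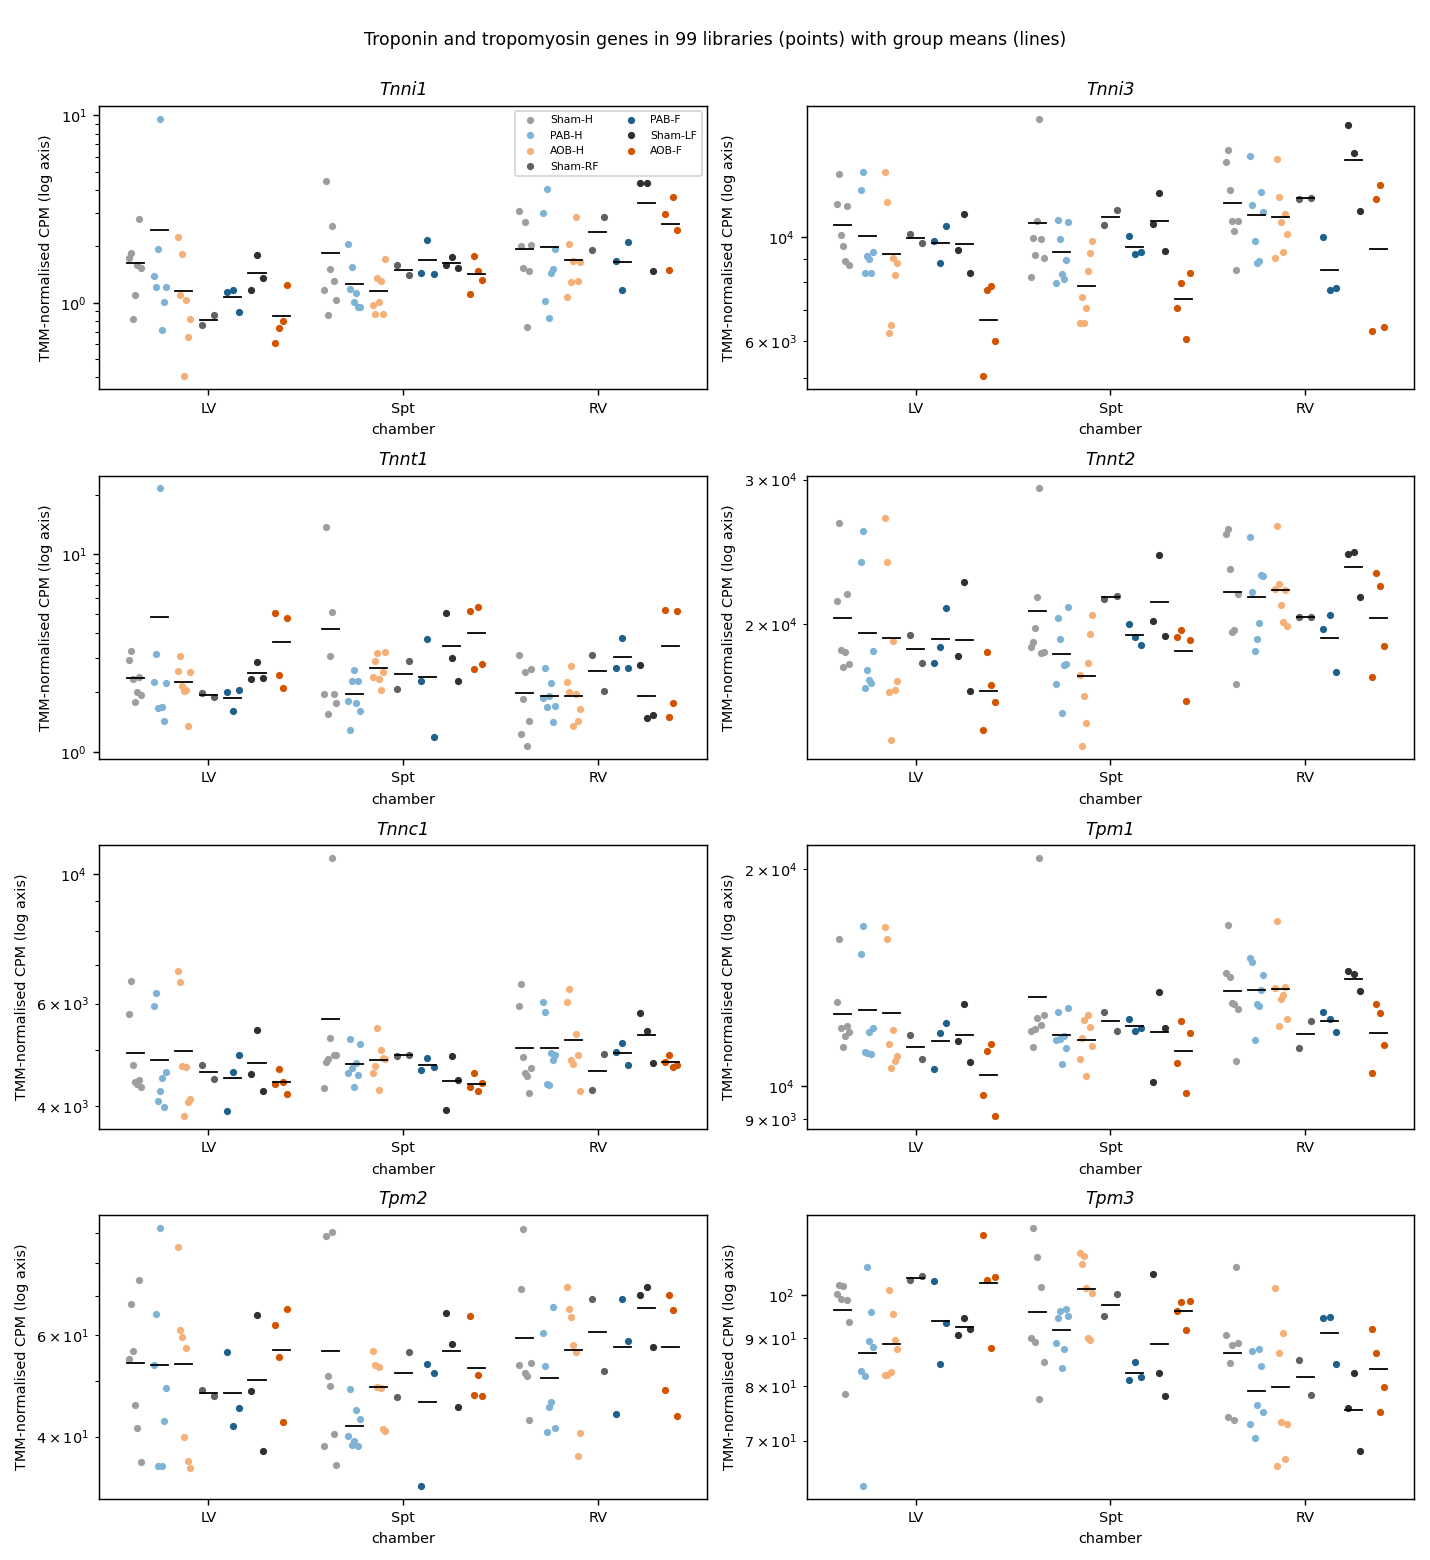
TMM-normalised CPM (log axes) of the 8 genes in the 99 libraries, by chamber (x axis) and condition (colour), with 1 point per library and a line at each group mean. In the LV panel of Tnni3 the 4 AOB-F libraries (5041 to 7842 CPM) lie below all 3 Sham-LF libraries, and in the Tnnt1 panel PAB-H LV replicate 4 (21.5 CPM) and Sham-H Spt replicate 2 (13.8 CPM) stand above all other libraries.

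The first comparison asked whether the calcium switch genes differ in the failing left heart. Upon AOB at the failure stage, Tnni3, the inhibitory subunit of adult heart, had the lowest p of the 8 genes in each chamber, with log2 fold changes of -0.54 (LV), -0.57 (Spt) and -0.63 (RV), and none of the 8 genes passed the adjusted threshold in any chamber (quasi-likelihood test of edgeR, p adjusted by Benjamini-Hochberg, threshold 0.05). Of all genes tested, 0.837% passed in LV, 0.232% did so in Spt and 0% in RV, and the shares with an unadjusted p under 0.05 were 12.7%, 12.2% and 12.9%. The AOB-F and Sham-LF animals are the same in the 3 chambers, which are therefore no repeats of each other.

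In LV the Tnni3 levels were 5041, 7721, 7842 and 5990 CPM in AOB-F replicates 1 to 4 and 9385, 11192 and 8385 CPM in Sham-LF replicates 1 to 3. Every AOB-F library was below every Sham-LF library. This corresponds to a log2 fold change of -0.54 ± 0.23 (SE), with an unadjusted p of 0.0234 and an adjusted p of 0.281 (edgeR). Tnni3 was the only 1 of the 8 genes whose groups did not overlap in LV, where 11.9% of all genes tested did not overlap.

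In Spt the levels of Tnni3 were 7042, 7974, 6050 and 8398 CPM in AOB-F and 10652, 12446 and 9360 CPM in Sham-LF. Here too the groups did not overlap, as for 9.76% of all genes, and Tnni3 was again the only 1 of the 8. The difference was -0.57 ± 0.19 on the log2 scale (SE, unadjusted p 0.00501, adjusted p 0.172, edgeR).

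In RV, the ventricle not loaded by the aortic clip, AOB-F libraries had 6307, 12057, 12915 and 6435 CPM of Tnni3 and Sham-LF libraries 17424, 15116 and 11352 CPM. AOB-F replicates 1 and 4 were far below the shams, while replicates 2 and 3 overlapped with the lowest sham. On the log2 scale the difference was -0.63 ± 0.23 (SE, unadjusted p 0.0117, adjusted p 0.347, edgeR). The difference between the response in LV and that in RV was 0.10 ± 0.31 (SE) on the log2 scale (95% interval -0.52 to 0.71, adjusted p 0.959, edgeR), so that neither a smaller nor a larger response of the loaded ventricle was detected.

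Tnnt1, slow skeletal troponin T, had a wide spread among AOB-F libraries. In LV the levels were 5.05, 2.44, 2.10 and 4.75 CPM in AOB-F and 2.33, 2.84 and 2.36 CPM in Sham-LF. In Spt they were 5.15, 2.64, 5.43 and 2.79 CPM against 5.03, 2.99 and 2.28 CPM. In RV they were 5.22, 1.50, 1.76 and 5.18 CPM against 2.75, 1.48 and 1.54 CPM. In each chamber 2 of the 4 AOB-F libraries were near 5 CPM and the others at 2.79 CPM or below, and the groups overlapped. On the log2 scale the difference was 0.51 ± 0.64 for LV (adjusted p 0.899), 0.18 ± 0.53 for Spt (adjusted p 0.943) and 0.83 ± 0.39 (SE) for RV, with an unadjusted p of 0.0415 and an adjusted p of 0.371 (edgeR).

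The 2 AOB-F libraries with the highest Tnnt1 level in a chamber were the 2 with the lowest Tnni3 level, namely replicates 1 and 4 in LV and RV and replicates 1 and 3 in Spt. They were also those with the highest summed level of 5 atrial cardiomyocyte markers (Myl7, Myl4, Sln, Bmp10 and Nppa, the natriuretic peptide that failing ventricles make as well), all 5 of which were detected in AOB-F in each chamber. In LV this sum was 17470, 3744, 2223 and 16662 CPM in AOB-F replicates 1 to 4 and 613 to 850 CPM in Sham-LF, where Bmp10 was at 0. In Spt it was 14106, 3308, 11425 and 2049 CPM against 382 to 1222 CPM, and in RV 6069, 2210, 218 and 8558 CPM against 165 to 2174 CPM. With 4 animals this order is a description without a test. The skeletal muscle markers, all 6 of them detected in AOB-F, summed to 0.612 to 1.86 CPM in the AOB-F libraries and to 0.352 to 2.04 CPM in the Sham-LF libraries.

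The replicate numbers of the septum need care here. Over all genes, AOB-F Spt replicate 3 correlated negatively with LV replicate 3 (r = -0.47) and positively with LV replicate 4 (r = 0.38), and Spt replicate 4 the other way round (-0.37 with LV replicate 4 and 0.59 with LV replicate 3), as deviations from the group mean over 11097 genes, with the same signs against RV. The labels were kept, and of the comparisons within 1 chamber only the fit with the replicate number as a block uses this numbering.

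**Figure D2:**
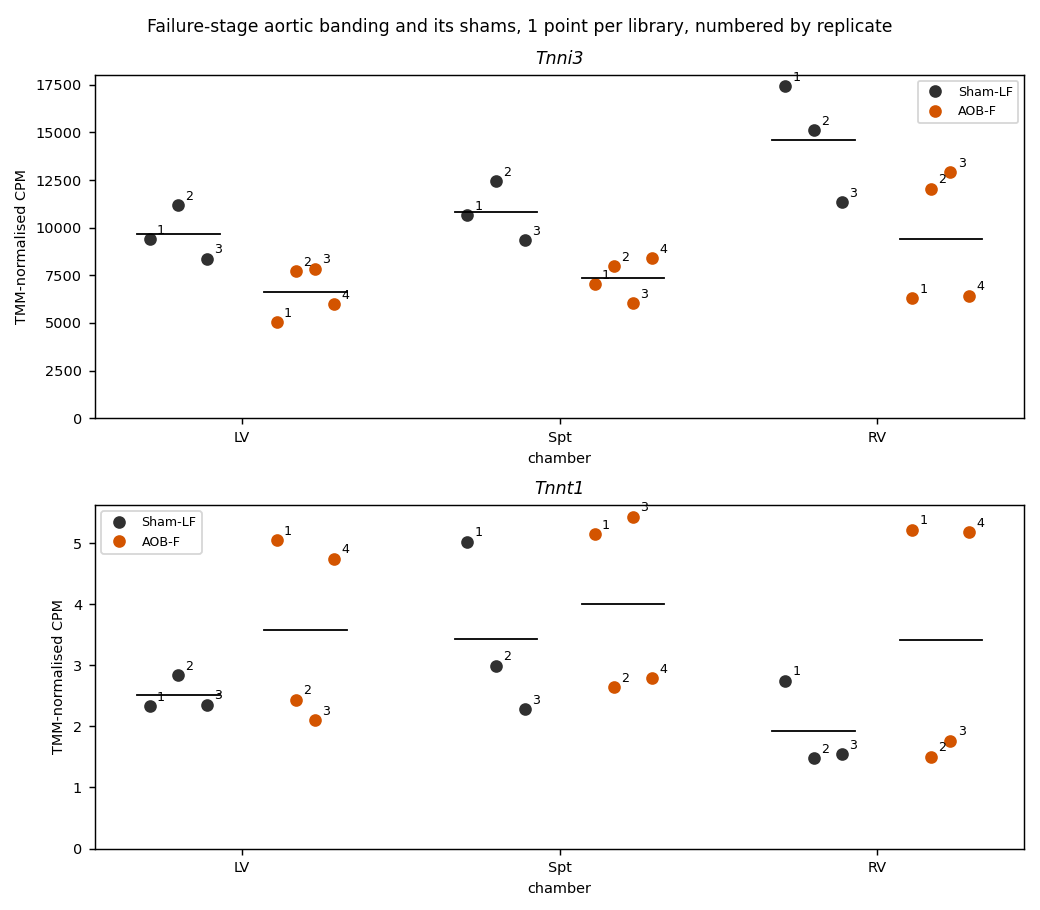
TMM-normalised CPM of Tnni3 (top) and Tnnt1 (bottom) in Sham-LF and AOB-F by chamber, with 1 point per library, its replicate number and a line at each group mean. The AOB-F points of Tnni3 lie below all Sham-LF points in LV and Spt, and 2 of 4 AOB-F points of Tnnt1 stand near 5 CPM in each chamber.

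The sum of the ventricular cardiomyocyte markers was lower in AOB-F as well, with overlap in RV. The summed level of the 6 markers, all detected, was 39583 to 50088 CPM in AOB-F LV and 51304 to 61106 CPM in Sham-LF LV, without overlap. In Spt it was 47731 to 54420 CPM against 55542 to 68624 CPM, again without overlap, and in RV 45545 to 61191 CPM against 60881 to 67907 CPM. The sum of 5 fibroblast markers in LV was 2238 to 2603 CPM against 1901 to 2052 CPM, and that of 4 macrophage markers 242 to 408 CPM against 208 to 248 CPM, all of them detected. In Spt these sums were 1245 to 1702 CPM against 1321 to 1638 CPM for fibroblasts and 168 to 246 CPM against 137 to 186 CPM for macrophages. In RV they were 1389 to 1961 CPM against 1464 to 2033 CPM and 171 to 271 CPM against 164 to 236 CPM. The fibroblast sums thus lay apart from those of Sham-LF in LV and overlapped in Spt and RV. In Sham-RF LV the fibroblast sums were 2213 and 2287 CPM, which overlap with AOB-F LV. Other filament genes of heart muscle were summed as well. Of their lists, that of the thick filament shares Myh6, Myl2 and Myl3 with the ventricular cardiomyocyte markers, and that of the thin filament shares Actc1. Their sums are thus not independent of the marker sum. The sums of 8 thick filament and M-band genes overlapped in each chamber (35349 to 47794 CPM in AOB-F LV against 43917 to 53430 CPM in Sham-LF LV). Those of 10 other thin filament genes were higher in AOB-F LV (17334 to 21795 CPM against 16028 to 17319 CPM) and overlapped in Spt and RV. The part of any of these lists in the values of Tnni3 was not tested.

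The other cardiac genes of the switch moved less upon AOB. Tnnt2, cardiac troponin T, had 14881, 18535, 16886 and 16078 CPM in AOB-F LV against 18309, 22522 and 16618 CPM in Sham-LF LV, with overlapping groups and a log2 fold change of -0.21 ± 0.19 (SE, adjusted p 0.796, edgeR). Its log2 fold changes in Spt and RV were -0.21 ± 0.14 and -0.20 ± 0.14 (SE, adjusted p 0.590 and 0.501). Tpm1, alpha-tropomyosin, had 9703, 11191, 11418 and 9085 CPM in AOB-F LV against 11538, 13008 and 10785 CPM. In RV it had 10411, 13002, 12613 and 11381 CPM against 14426, 14312 and 13526 CPM. The RV groups did not overlap, as for 9.88% of all genes tested there, and the log2 fold change was -0.24 ± 0.12 (SE, unadjusted p 0.0573, adjusted p 0.392, edgeR). Tnnc1, the calcium sensor, had 4376, 4641, 4405 and 4202 CPM in AOB-F LV against 4551, 5415 and 4245 CPM in Sham-LF LV, with overlap. Its log2 fold changes in LV, Spt and RV were -0.11 ± 0.19, -0.03 ± 0.18 and -0.15 ± 0.14 (SE, adjusted p 0.955, 0.974 and 0.602, edgeR).

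Of the minor isoforms, Tnni1, the fetal and slow skeletal troponin I, had 0.612, 0.731, 0.804 and 1.24 CPM in AOB-F LV against 1.17, 1.80 and 1.36 CPM in Sham-LF LV. AOB-F replicates 1 to 3 were below all shams and replicate 4 overlapped. The log2 fold change was -0.75 ± 0.68 (SE, adjusted p 0.790, edgeR), an interval that spans -2.08 to 0.57. Tpm2, beta-tropomyosin, had 62.5, 55.0, 42.4 and 66.5 CPM in AOB-F LV against 47.9, 64.9 and 37.7 CPM, with overlap and a log2 fold change of 0.17 ± 0.30 (SE, adjusted p 0.953). For Tpm3 the LV levels were 116, 104, 87.9 and 105 CPM in AOB-F against 90.8, 94.7 and 92.1 CPM, so that 3 AOB-F libraries were above all shams and replicate 3 below them (log2 fold change 0.15 ± 0.12, SE; adjusted p 0.720, edgeR). Over the 8 genes the range of log2 fold changes was -0.75 to 0.51 (LV), -0.57 to 0.18 (Spt) and -0.63 to 0.83 (RV).

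As shares of their families, the minor isoforms of LV stood at 0.0128% ± 0.00504 for Tnni1 in AOB-F (SD, n = 4) against 0.0146% ± 0.00208 in Sham-LF (SD, n = 3). For Tnnt1 the shares were 0.0258% ± 0.0129 against 0.0153% ± 0.00102, and for Tpm2 1.08% ± 0.303 against 0.817% ± 0.145. The share of Tpm3 was 1.03% ± 0.197 against 0.806% ± 0.0651 in LV. In RV the Tpm3 share was 0.727% ± 0.125 in AOB-F, with a range of 0.607% to 0.901%. In Sham-LF RV it was 0.548% ± 0.0378, with a range of 0.516% to 0.589% and no overlap with AOB-F. The Tpm3 shares overlapped in LV and Spt, and the shares of Tnni1, Tnnt1 and Tpm2 overlapped in each chamber. The RV levels of Tpm3 in CPM overlapped as well, while those of Tpm1, which enters the family sum, were lower in AOB-F without overlap. The differences in LV lay within the SD of AOB-F for Tnni1, Tnnt1 and Tpm2 and exceeded it for Tpm3. The shares were not tested.

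The second comparison concerned the failing right heart. Upon PAB at the failure stage none of the 8 genes passed in LV, Spt or RV, where 0%, 0% and 0% of all genes tested passed, and 1.04%, 4.14% and 8.37% had an unadjusted p under 0.05 (edgeR). None of the 8 genes had an unadjusted p under 0.05 in these 3 comparisons. With 3 against 2 animals many genes do not overlap between groups: the shares of all genes were 18.6% (LV), 42.7% (Spt) and 35.4% (RV), and 2, 4 and 1 of the 8 genes did not overlap.

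In the loaded RV, Tnni3 had 10019, 7710 and 7792 CPM in PAB-F replicates 1 to 3 and 12080 and 12152 CPM in Sham-RF. All PAB-F libraries were below both shams, and Tnni3 was the 1 gene of the set without overlap in RV. On the log2 scale the difference was -0.52 ± 0.28 (SE, unadjusted p 0.0732, adjusted p 0.639, edgeR). In the same libraries the ventricular cardiomyocyte markers summed to 59374, 50665 and 49415 CPM in PAB-F and to 59452 and 61340 CPM in Sham-RF, and the atrial markers to 330, 5731 and 7162 CPM against 65.2 and 98.3 CPM, without overlap for either list and with all markers detected in both groups. Their part in the value of Tnni3 was not tested. In Spt the levels were 10066, 9187 and 9300 CPM against 10639 and 11418 CPM (-0.21 ± 0.23), and in LV the log2 fold change was -0.03 ± 0.27 (SE). Over the 8 genes the log2 fold changes ranged from -0.15 (Tpm3) to 0.40 (Tnni1) in LV and from -0.24 (Tpm3) to 0.17 (Tnni1) in Spt. The response of RV minus that of LV was -0.48 ± 0.38 (SE, 95% interval -1.22 to 0.26, adjusted p 0.999, edgeR).

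The other genes had small or imprecise differences in the RV upon PAB. Tnnt2 had 19760, 20518 and 17494 CPM in PAB-F against 20400 and 20425 CPM in Sham-RF (-0.09 ± 0.17), and the groups overlapped. Tnnc1 had 4965, 5139 and 4708 CPM against 4271 and 4917 CPM (0.10 ± 0.17), and Tpm1 had 12658, 12402 and 11893 CPM against 11282 and 12288 CPM (0.06 ± 0.15). The adjusted p of these 3 genes lay between 0.876 and 0.920 (edgeR). Tnni1 had 1.68, 1.17 and 2.11 CPM against 1.91 and 2.87 CPM, with overlap and a log2 fold change of -0.54 ± 0.56 (SE, adjusted p 0.794). Tnnt1 had 2.66, 3.75 and 2.65 CPM against 3.09 and 2.04 CPM, with overlap (0.24 ± 0.45). Tpm2 had 43.8, 69.3 and 58.5 CPM against 69.3 and 52.0 CPM (-0.09 ± 0.29), and Tpm3 had 94.6, 94.7 and 84.5 CPM against 85.3 and 78.2 CPM (0.15 ± 0.16), both with overlap.

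At the compensated stage none of the 8 genes passed upon AOB or PAB in any chamber, and neither did any other gene (0% of all genes tested in each of the 6 comparisons, edgeR). The shares of all genes with an unadjusted p under 0.05 were 4.54% (LV), 15.9% (Spt) and 0.937% (RV) upon AOB and 4.72%, 4.44% and 1.26% upon PAB. AOB-H and PAB-H share the Sham-H animals, so that a high or low sham library enters both. In the RV, the log2 fold changes of the 8 genes lay between -0.17 and 0.06 upon AOB and between -0.23 and 0.04 upon PAB. In the LV upon AOB they lay between -0.52 (Tnni1) and 0.01 (Tnnc1), with adjusted p of 0.956 or more. Upon PAB they lay between -0.15 (Tpm3) and 1.00 (Tnnt1) in LV and between -1.10 (Tnnt1) and -0.06 (Tpm3) in Spt. Without the 3 animals of opposite direction between RV and LV, the ranges were -0.58 to -0.06 (LV) and -0.21 to -0.03 (RV) upon AOB and -0.14 to 1.08 (LV) and -0.31 to 0.08 (RV) upon PAB, again with no call (adjusted p 0.640 or more, edgeR).

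The septum upon AOB had 3 genes of the set with an unadjusted p under 0.05, against 15.9% of all genes tested. Tnni3 had 6554 to 9825.5 CPM in AOB-H Spt, with a median of 7433 CPM, and 8229 to 17941.5 CPM in Sham-H Spt, with a median of 9894 CPM. Of the 7 AOB-H libraries 4 were below all shams, and the groups overlapped. The log2 fold change was -0.44 ± 0.13 (SE, unadjusted p 0.00254, adjusted p 0.209), and those of Tnnt2 and Tnni1 were -0.26 ± 0.10 and -0.65 ± 0.28 (SE, adjusted p 0.245 and 0.267, edgeR). The ventricular cardiomyocyte markers, all 6 detected, summed to 45880 to 63070 CPM in AOB-H Spt (median 52080) and to 54690 to 71539 CPM in Sham-H Spt (median 59550), and their part in these values was not tested.

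These values drew on Sham-H Spt replicate 5, in which the 4 most abundant genes of the set were far above the other 6 shams. It had 17941.5 CPM of Tnni3 (next highest 10819), 29266 CPM of Tnnt2 (21581), 10646 CPM of Tnnc1 (5230) and 20702.5 CPM of Tpm1 (12554). The 8 genes took 6.18% of its counts and the ventricular cardiomyocyte markers summed to 71539 CPM, both the highest of the 99 libraries. Without this library, an alternative chosen after its values were seen, the log2 fold change of Tnni3 in Spt upon AOB was -0.26 ± 0.10 (SE, unadjusted p 0.0161, adjusted p 0.455), and Tnni1 and Tnnt2 had unadjusted p of 0.0570 and 0.0758 (edgeR). The value of Tnni1 rested more on Sham-H Spt replicate 2, a library with skeletal muscle markers, and was -0.22 ± 0.23 without it (SE, unadjusted p 0.336). Tnni1 levels were 0.870 to 1.72 CPM (median 1.01) in AOB-H Spt and 0.860 to 4.45 CPM (median 1.30) in Sham-H Spt, and Tnnt2 levels 14235 to 20536 CPM (median 17358) and 18457 to 29266 CPM (median 19054). Both genes overlapped between the groups, with 5 of 7 AOB-H libraries below all shams for Tnnt2.

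Across the 12 comparisons of banded with sham hearts, 0 of 96 tests of the 8 genes passed by edgeR or by DESeq2. An unadjusted p under 0.05 was reached in 10 of them by edgeR (10.4%, against 6.92% of the tests of all genes pooled over these comparisons) and in 13 by DESeq2 (13.5%, against 7.15%). By edgeR, 4 of these 10 belonged to Tnni3, 3 to Tnnt1 and 1 each to Tnni1, Tnnt2 and Tpm2. Some of them depended on single libraries, in alternatives chosen after the values were seen. Tnnt1 upon PAB in LV and Spt and Tpm2 upon PAB in Spt were over 0.05 without the libraries with skeletal muscle markers. Tnni1 and Tnnt2 upon AOB in compensated-stage Spt were over 0.05 without Sham-H Spt replicate 5. The comparisons share shams, animals or both, so that these counts are not independent.

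**Figure D3:**
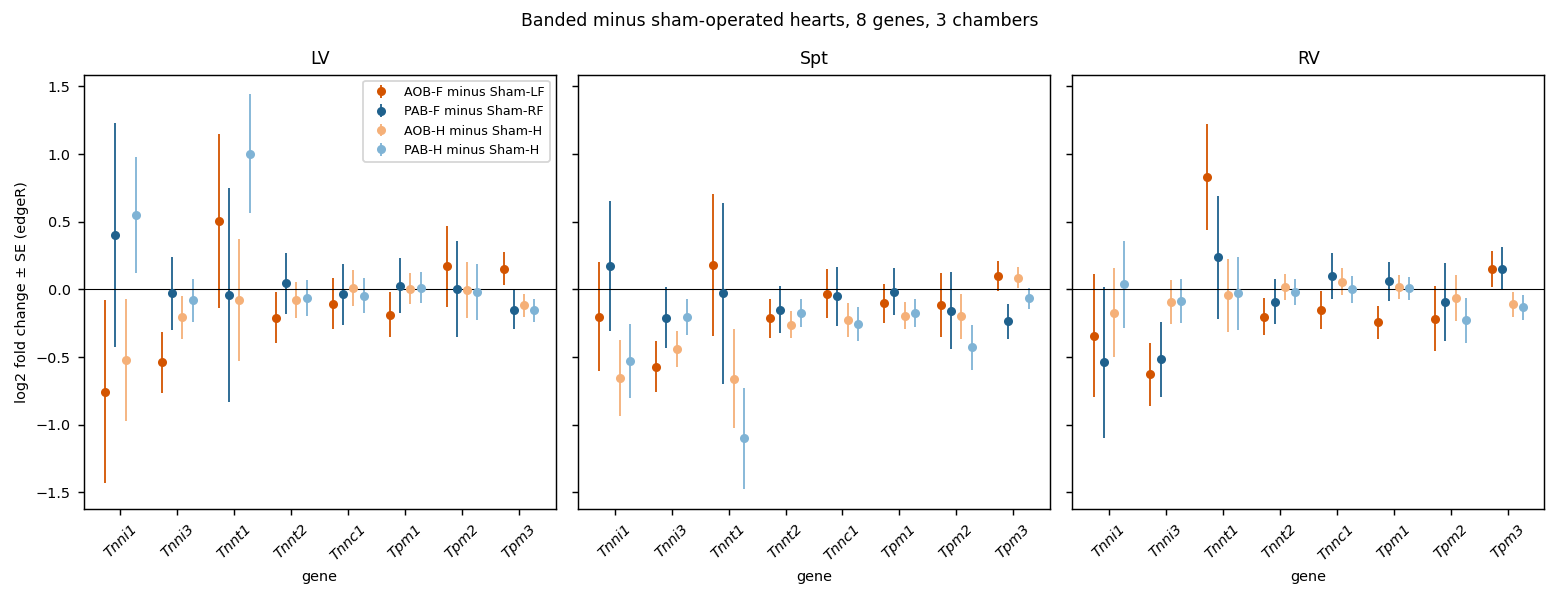
Log2 fold changes (y axis; points) with SE (bars) of the 8 genes (x axis) in the 12 comparisons of banded with sham hearts, by chamber, edgeR. The AOB-F points of Tnni3 lie at -0.54, -0.57 and -0.63, and the PAB-H point of Tnnt1 at 1.00 in LV and at -1.10 in Spt each rest on 1 library with skeletal muscle markers.

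Tests of the difference between stages gave no call. The AOB response of Tnni3 at the failure stage minus that at the compensated stage was -0.33 ± 0.28 in LV and -0.13 ± 0.23 in Spt, and the PAB response in RV -0.43 ± 0.32 (SE, log2; adjusted p 0.889 or more, edgeR). The lowest p of the 8 genes in these tests was that of Tpm3 in LV upon AOB (0.27 ± 0.15, unadjusted p 0.0751, adjusted p 0.693). In the 5 tests of a difference between stages or ventricles, 0 of 40 values of the 8 genes had an unadjusted p under 0.05 by edgeR and 0 by DESeq2, while 7.6% of all genes did in LV and 2.92% in Spt upon AOB, 2.67% in RV upon PAB, 2.4% between LV and RV upon AOB and 4.89% between RV and LV upon PAB (edgeR, 0% called in each).

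In PAB-H LV and Sham-H Spt, the high levels of the slow skeletal genes rested on 2 libraries. In PAB-H LV replicate 4, Tnnt1 had 21.5 CPM and Tnni1 9.62 CPM, while the other PAB-H LV libraries reached 3.12 and 1.93 CPM at most. In Sham-H Spt replicate 2 the levels were 13.8 and 4.45 CPM. No other library had more than 5.43 CPM of Tnnt1.

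Fast skeletal muscle genes, which heart muscle cells normally do not use, were high in the same libraries. The fast troponin genes Tnnt3, Tnni2 and Tnnc2 had 64.1, 34.0 and 33.1 CPM in PAB-H LV replicate 4 and 27.1, 12.8 and 14.3 CPM in Sham-H Spt replicate 2, while the other 97 libraries had at most 11.9, 1.86 and 1.66 CPM. Myh1 and Mylpf had 49.7 and 60.0 CPM in the first library and 15.7 and 20.1 CPM in the second. The Tnnt3 row carries the same NCBI gene number as Tnnt2 in the table, so its identity rests on its symbol. The animals from which these libraries came gave no other library with more than 10 CPM of the skeletal muscle markers.

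With both libraries the log2 fold change of Tnnt1 upon PAB was 1.00 ± 0.44 in LV (unadjusted p 0.0298, adjusted p 0.957) and -1.10 ± 0.38 in Spt (SE, unadjusted p 0.00630, adjusted p 0.790, edgeR). Without them, an alternative chosen after the values were seen, it was -0.21 ± 0.21 (unadjusted p 0.322) and -0.35 ± 0.27 (SE, unadjusted p 0.209). The value in LV thus changed its sign. Tpm2, beta-tropomyosin, had 91.8 and 89.2 CPM in the 2 libraries, and its log2 fold change in Spt upon PAB was -0.43 ± 0.17 with them (SE, unadjusted p 0.0152) and -0.28 ± 0.16 without them (unadjusted p 0.0859). Tpm3 had 107 and 118 CPM there, and its log2 fold change in LV upon PAB was -0.15 ± 0.08 with them and -0.21 ± 0.08 without them (SE, unadjusted p 0.0787 and 0.0166, adjusted p 0.957 and 0.998, edgeR). Among the other 97 libraries the highest levels were 91.4 CPM of Tpm2 and 116 CPM of Tpm3, so that high Tpm2 was not particular to these 2 libraries. Sham-H Spt replicate 5 had 90.3 CPM of Tpm2 and stayed in both fits of Spt. The mean Tnnt1 share of PAB-H LV was 0.0304% with replicate 4 and 0.0119% without it.

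**Figure D4:**
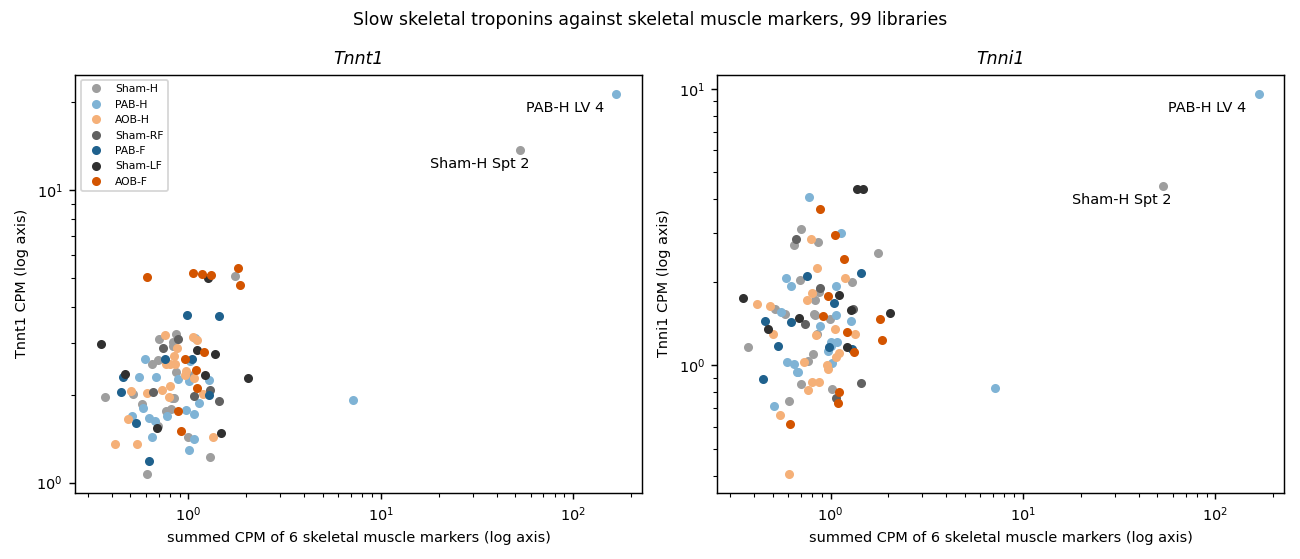
TMM-normalised CPM of Tnnt1 (left) and Tnni1 (right) against the summed CPM of 6 skeletal muscle markers in the 99 libraries (log axes), coloured by condition. The 2 named libraries have marker sums of 168 and 53.2 CPM, while the other 97 are at 7.17 CPM or below and hold at most 5.43 CPM of Tnnt1.

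The chambers of sham hearts differed in 2 of the 8 genes. In the 5 older shams (Sham-RF and Sham-LF together), Tnni1 was higher and Tpm3 lower in RV than in LV (adjusted p under 0.05, edgeR), where 6.03% of all genes tested passed and 24.3% had an unadjusted p under 0.05. All 10 of these libraries belong to library series 2.

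Tnni1 had 1.91, 2.87, 4.35, 4.35 and 1.48 CPM in the RV and 0.761, 0.864, 1.17, 1.80 and 1.36 CPM in the LV of the same 5 animals. The RV was higher in 5 of 5 animals, by 1.09-fold to 3.73-fold, and 4 of 5 RV libraries were above all LV libraries. The log2 fold change of RV against LV was 1.39 ± 0.45 (SE, adjusted p 0.0496), and 1.35 ± 0.44 with the animal as a block (adjusted p 0.0362, edgeR). The call rested on a p just under the threshold, and it was lost without Sham-LF replicate 1 or 2 or without either Sham-RF animal, with log2 values of 1.21 to 1.47. Without Sham-LF replicate 3 it remained, with a value of 1.56.

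Tpm3 had 85.3, 78.2, 75.8, 82.6 and 68.2 CPM in the RV and 104, 105, 90.8, 94.7 and 92.1 CPM in the LV. It was lower in the RV of 5 of 5 animals, by ratios of 0.740 to 0.872, and the chambers did not overlap. The log2 fold change was -0.32 ± 0.10 (SE, adjusted p 0.0431), and -0.33 ± 0.09 with the animal as a block (adjusted p 0.0204, edgeR). Leaving out any 1 of the 5 animals lost the call, with values of -0.36 to -0.29.

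Tnni3 was also without overlap between the chambers, as 11.3% of all genes were, but did not pass. It had 12080, 12152, 17424, 15116 and 11352 CPM in RV and 10164, 9713, 9385, 11192 and 8385 CPM in LV, and was higher in the RV of 5 of 5 animals. The log2 fold change was 0.44 ± 0.19 (SE, unadjusted p 0.0209, adjusted p 0.132). It was 0.44 with an adjusted p of 0.0860 with the animal as a block, and 0.44 ± 0.16 (SE) with an adjusted p of 0.0457 with the library series as a covariate (edgeR), which is under the threshold. Over all genes, 2090 of 11924 passed with the covariate and 1496 with the block, against 719 without either. The ventricular cardiomyocyte markers summed to 59452 to 67907 CPM in the older sham RV and 51304 to 61106 CPM in LV, all 6 detected. The fibroblast markers summed to 1464 to 2033 CPM in RV and 1901 to 2287 CPM in LV, all 5 detected. Their part in these values was not tested.

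In the younger Sham-H hearts none of the 8 genes passed between RV and LV, and 0% of all genes did (6.05% with an unadjusted p under 0.05). Tpm3 was lower in the RV of 6 of 7 animals (log2 fold change -0.15 ± 0.08, SE; unadjusted p 0.0761, adjusted p 0.828, edgeR), and the exception was Sham-H replicate 6, whose libraries labelled RV and LV differed in the opposite direction over the 50 genes used to check chambers. Tnni3 was higher in the RV of 6 of 7 animals, with the same exception (0.16 ± 0.16), and Tnni1 in 5 of 7 (0.23 ± 0.36). Without the 3 animals of opposite direction the log2 fold changes were -0.20 ± 0.08 for Tpm3 (adjusted p 0.210), 0.25 ± 0.17 for Tnni3 (adjusted p 0.509) and 0.48 ± 0.39 for Tnni1 (SE, adjusted p 0.602). The difference between older and younger shams in RV against LV was not tested.

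**Figure D5:**
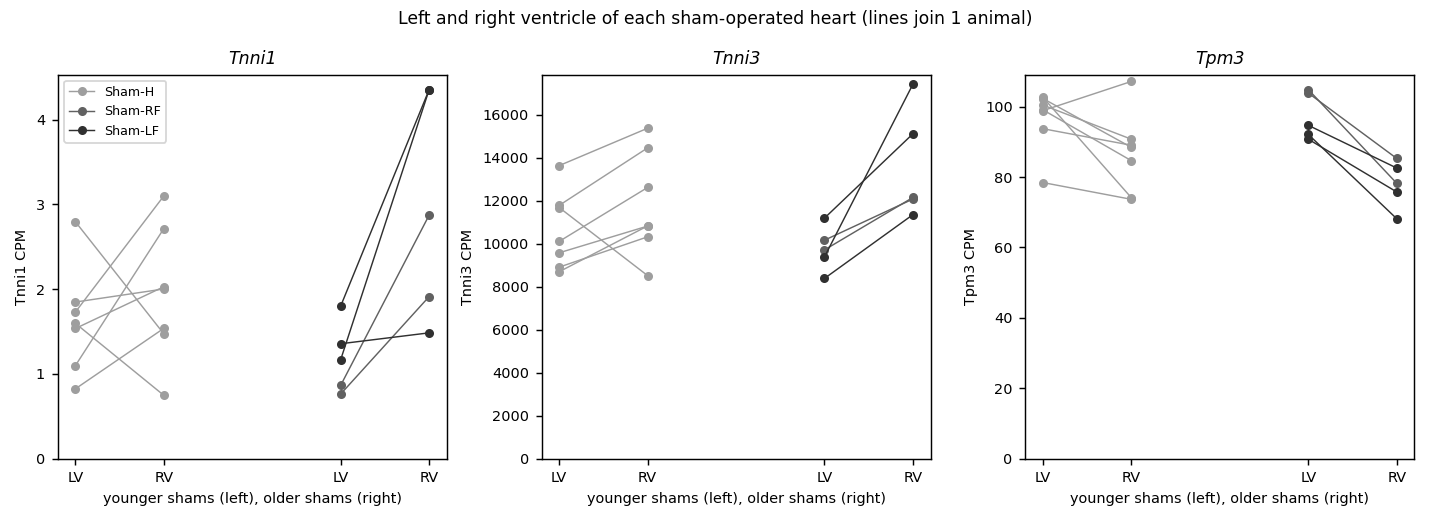
CPM of Tnni1, Tnni3 and Tpm3 in LV and RV of the 7 Sham-H animals (left in each panel) and the 5 older shams (right), with lines joining both ventricles of an animal. In the older shams all 5 lines go up for Tnni1 and Tnni3 and down for Tpm3.

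Between Spt and LV none of the 8 genes passed in Sham-H (0.0923% of all genes, 7.18% with an unadjusted p under 0.05) or in the older shams (0.805% and 11.2%). In the older shams the septum libraries belong to series 3 and the LV libraries to series 2, so that chamber and series cannot be told apart there. With Sham-H, Tnnt1 had a log2 fold change of 0.82 ± 0.38 (SE, unadjusted p 0.0326, adjusted p 0.641), and of 0.08 without the libraries with skeletal muscle markers (unadjusted p 0.746, edgeR). The septum of Sham-H has no library of series 1, which holds 2 of the 7 LV libraries. With the series as a covariate Tnnc1 passed there (0.37 ± 0.09, SE, adjusted p 0.0257), against 0.19 ± 0.12 (adjusted p 0.791) in the fit without it, and it was -0.04 ± 0.11 without Sham-H Spt replicate 5 (unadjusted p 0.740, edgeR). Over all genes, 221 of 11924 passed with the covariate, against 11 without it.

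The age of the shams made no difference that passed. Older shams against Sham-H gave 0 of 24 values under an adjusted p of 0.05 in the 3 chambers and 0 under an unadjusted p of 0.05 by edgeR (1 by DESeq2), where between 0.0171% (LV) and 0.103% (Spt) of all genes passed, with 0.0852% in RV, and 6.99% (LV), 16.8% (Spt) and 11% (RV) of all genes had an unadjusted p under 0.05. The lowest p was that of Tnnc1 in Spt, with 4612 ± 424 CPM (SD, n = 5) in older shams and 5652 ± 2219 CPM (SD, n = 7) in Sham-H (log2 fold change -0.28 ± 0.14, SE; unadjusted p 0.0545, adjusted p 0.307, edgeR), where Sham-H Spt replicate 5 had 10646 CPM. Without that library the value was -0.05 ± 0.07 (unadjusted p 0.448). Over the 8 genes the log2 fold changes lay between -0.61 (Tnni1) and 0.02 in LV, between -0.53 (Tnnt1) and 0.04 in Spt and between -0.14 (Tpm3) and 0.56 (Tnni1) in RV. Without the libraries with skeletal muscle markers, Tnnt1 in Spt was 0.23 ± 0.30 and Tnni1 0.20 ± 0.25 (SE, unadjusted p 0.448 and 0.436), where they had been -0.53 and -0.24. Age goes along with the library series in part, since the older shams are all in series 2 (LV and RV) or series 3 (Spt). With the series as a covariate none of the 24 values passed (adjusted p 0.291 or more, edgeR), and 4 of the LV values that had been below 0 were above it, namely those of Tnni3 (0.09), Tnnt2 (0.06), Tnnc1 (0.07) and Tpm1 (0.0033).

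Among the abundant genes, series 1 stood apart in part, while series 2 and 3 overlapped. In compensated-stage LV all libraries of series 1 lay above the others for Tnnc1, Tnni3 and Tpm1, but not for Tnnt2. In RV they did so for Tnnc1 only. In compensated-stage LV, Tnnc1 had 6317 ± 405 CPM in series 1 (SD, n = 6), 4388 ± 289 CPM in series 2 (SD, n = 9) and 4255 ± 235 CPM in series 3 (SD, n = 6), and the lowest library of series 1 (5770 CPM) was above the highest of the others (4700 CPM). Tnni3 in LV had 12917 ± 945 CPM in series 1, 8533 ± 1325 CPM in series 2 and 9189 ± 1272 CPM in series 3. Each compensated-stage condition holds 2, 3 and 2 libraries of series 1, 2 and 3 in LV and RV, so that the series are balanced between banded and sham hearts. Within series 2, the log2 fold change of Tnni3 upon AOB at the failure stage was -0.54 ± 0.15 in LV (adjusted p 0.0958) and -0.65 ± 0.22 in RV (adjusted p 0.141), and within series 3 it was -0.56 ± 0.14 in Spt (SE, adjusted p 0.0642, edgeR). With the series as a covariate in the fit of LV it was -0.54 ± 0.14 with an adjusted p of 0.0382, a call that the fit without it did not make. Over all genes, 366 of 11703 passed with the covariate, against 98 without it.

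The other genes of the thin filament were listed beside these, of which 10 of 12 were measured. Of them, Tmod4, a tropomodulin that caps the pointed end of actin filaments, was lower upon AOB at the failure stage in LV (log2 fold change -1.26 ± 0.28, SE; adjusted p 0.0338) and Spt (-1.10 ± 0.25, SE; adjusted p 0.0483, edgeR). In the same LV comparison the median log2 fold change of these 10 genes was 0.07, that of the 8 troponin and tropomyosin genes -0.15 and that of all genes tested 0.01. Nebl, the nebulette of cardiac Z-discs, was higher in RV than in LV of the older shams (0.85 ± 0.21, SE; adjusted p 0.0112). No other gene of this list passed in any of the 24 comparisons, and none of 8 measured genes of the thick filament and M-band did.

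The genes whose group means followed those of each gene most closely were found by Pearson's r over the 21 group means, which share animals and library series. For Tnni3 they were Slc25a4 (r = 0.977) and Gstk1 (0.977), for Tnnt2 Psma2 (0.954) and Psmd7 (0.952), for Tpm1 Strap (0.941) and Etfa (0.938) and for Tnnc1 Timm22 (0.857) and Cav3 (0.851). For Tnnt1 they were Myl1 (0.855) and Vgll2 (0.846), for Tnni1 Zfp868 (0.883) and Ank3 (0.882), for Tpm2 Sdf2 (0.860) and Rnf138 (0.859) and for Tpm3 Tubb5 (0.912) and Slc15a3 (0.912). The values of Tnnt1 include the groups that hold the libraries with skeletal muscle markers.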

How the data were processed

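RNA was measured in 99 libraries of 33 rats. Per the labels and the study's methods, the authors prepared poly(A) libraries, trimmed reads (Trim Galore), aligned them with STAR to rat genome Rnor6.0 and counted them per gene with featureCounts, without reads that overlap several genes. The table holds raw counts per gene as deposited by the authors, counts divided by DESeq2 size factors (unit signal) that the authors computed, and FPKM values deposited by the authors, which equal the normalized counts divided by 1 constant per gene. Whether counting used strand was not given in the sources used here. The label text and the study give other ages than the per-sample labels, which were used.

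Counts were tested with edgeR 4.0.16 (R 4.3.3): TMM normalisation, filterByExpr by group, quasi-likelihood fit and Benjamini-Hochberg adjustment at 0.05 over all genes tested (11703 for LV, 11624 for Spt, 11734 for RV). Each comparison within a chamber used the 33 libraries of that chamber, and comparisons between chambers all 99 libraries with 11924 genes tested. SE was taken from the fold change and its F statistic, and intervals are 95%. The older shams were pooled. All p-values are two-sided. Levels are TMM-normalised CPM over the 99 libraries, and levels between genes use FPKM. Promoter windows came from RefSeq (GRCr8). The fits were tested on simulated data. Replicates are different animals, and the 3 chambers are paired by the animal named in the labels, where 68 of 99 correlations of deviations between chambers of an animal were over 0.1. Alternatives were DESeq2 1.42.0, its size factors, no filter, the library series, the replicate block, left out animals and other sets of libraries. The 8 genes are the named genes: in AOB-F LV and PAB-F RV all were given with values, in other comparisons mainly those with an unadjusted p under 0.05. The genes and gene lists were chosen with earlier results of these data known. Of the other filament lists, Lmod3, Neb, Ttn and Myom3 were not analysed here.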

Additional observations from a re-analysis of the deposited data

Results flagged for a closer look

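In groups of 4 to 10 libraries, the highest or lowest value of a gene was set against the gap to its neighbour (Dixon's criterion). Of 96 sets of 1 gene in 1 group, 12 held a library that stood apart, and chance gives about 1 in 20.

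The slow skeletal genes stood apart in the 2 libraries with skeletal muscle markers. PAB-H LV replicate 4 had 9.62 CPM of Tnni1, with the next highest library at 1.93 CPM, and 21.5 CPM of Tnnt1, with the next at 3.12 CPM. Sham-H Spt replicate 2 had 13.8 CPM of Tnnt1, with the next at 5.11 CPM.

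The abundant genes stood apart together in Sham-H Spt replicate 5, which had 17941.5 CPM of Tnni3 (next 10819), 29266 CPM of Tnnt2 (next 21581), 10646 CPM of Tnnc1 (next 5230) and 20702.5 CPM of Tpm1 (next 12554). AOB-H RV replicate 2 was the highest of 7 for Tnnt2 with 26380.5 CPM (next 22415.5) and for Tpm1 with 16930 CPM (next 13730). Sham-H LV replicate 2 was the highest for Tpm1 with 16010 CPM (next 13066).

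At the low end, Tnnt2 in AOB-F Spt replicate 3 was 16126 CPM, with the other 3 libraries at 19173 CPM or above, and Tpm3 in Sham-H LV replicate 5 was 78.4 CPM (next 93.7). No cause was tested for any of these values.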

How the results depend on the processing

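The counts of the 8 genes called were labelled the same in 315 of 323 recomputed values, a label that also covers small changes of a count above 0. The fold changes kept their direction and their side of the threshold in 393 of 413. The main fit called some of the 8 genes only between RV and LV of the older shams, and 0 calls in both fits count as the same. Most of this agreement on calls thus reflects that nothing was called, and it does not show that results are stable. The isoform shares moved by less than the SD in 56 of 56, each of which left out 1 library. Leaving out 1 library cannot move a mean by more than the SD, so this count does not show that the shares are stable. With the library series as a covariate, 1 gene was called in AOB-F LV (Tnni3, -0.54, adjusted p 0.0382) and 1 between Spt and LV of Sham-H (Tnnc1), and Tnni3 passed between RV and LV of the older shams (0.44, adjusted p 0.0457). In these comparisons the covariate also raised the counts over all genes. They rose from 98 to 366 of 11703, from 11 to 221 of 11924 and from 719 to 2090 of 11924, in that order. The 2 calls between RV and LV of the older shams fell to 0 without the filter on low counts, which tests more genes (adjusted p 0.0602 for Tnni1 and 0.0524 for Tpm3), and to between 0 and 1 when 1 animal was left out, which leaves fewer samples. They were 0 without Sham-LF replicate 1 or 2 or Sham-RF replicate 1 or 2, and 1 (Tnni1) without Sham-LF replicate 3. Among the values of the 8 genes in the comparisons they enter, the sign turned in 11 of 144 without the skeletal muscle libraries, in 12 of 40 without Sham-H Spt replicate 5 (both chosen after seeing the data), in 11 of 192 without the animals of opposite direction and in 11 of 192 with the series as a covariate. It turned with a move of over 0.25 on the log2 scale in 6 of them, all without the skeletal muscle libraries: Tnnt1 (-0.21) and Tnni1 (-0.40, from 0.55) upon PAB in LV, Tnnt1 in AOB-H Spt (0.09, from -0.66), Tnnt1 (0.23) and Tnni1 (0.20) for age in Spt and Tnni1 between Spt and LV of Sham-H (-0.25, from 0.17). Beside these, the direction turned for Tnnt1 upon PAB in LV within library series 1 (-0.19) and series 3 (-0.24), for Tnnt1 in PAB-F RV without Sham-RF replicate 2 (-0.019, with 0.57 as the highest when 1 animal was left out), for Tpm2 in PAB-F RV without PAB-F replicate 1 (0.08) or Sham-RF replicate 1 (0.14, with -0.26 as the lowest) and for Tnnc1 in AOB-F LV without Sham-LF replicate 2 (0.0063, with -0.18 as the lowest). The causes were not tested. Tnni3 kept its sign when 1 animal was left out, with log2 values of -0.63 to -0.41 in AOB-F LV, -0.67 to -0.44 in Spt and -0.83 to -0.49 in RV, and Tnnt1 in AOB-F RV ranged from 0.54 to 1.16.

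With the replicate number as a block, Tnni3 upon AOB at the failure stage was -0.51 in LV (adjusted p 0.211), -0.64 in Spt (0.0969) and -0.52 in RV (0.349), and none of the 8 genes was called. The Spt value uses the doubted numbers of AOB-F Spt replicates 3 and 4. Correlations of same-numbered samples across groups were over 0.1 in 34 of 57 pairs and in all pairs of 1 of 12 comparisons, so the number was not taken as a pairing. At the compensated stage it also fixes the library series, and there 23 of 28 pairs in LV and RV (highest r 0.869) and 4 of 14 in Spt were over 0.1, against 7 of 15 at the failure stage, where a chamber holds 1 series. The block moved the count over all genes from 98 to 1 in AOB-F LV and from 27 to 234 in AOB-F Spt, and the animal as a block left the calls between chambers unchanged for the 8 genes.

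Over all genes, the alternatives moved the number called from 98 to between 0 and 366 in AOB-F LV (0 to 636 with 1 animal left out), from 27 to between 0 and 234 in AOB-F Spt, from 0 to 76 at most in AOB-F RV, from 0 to 792 at most in PAB-F Spt (with the 2 groups alone), from 0 to 149 at most between RV and LV of Sham-H and from 719 to between 579 and 2090 in the older shams (4 to 606 with 1 animal left out). They moved it from 96 to between 65 and 266 between Spt and LV of the older shams, from 11 to between 4 and 221 in Sham-H, and, for age, from 2 to between 0 and 19 in LV, from 12 to between 0 and 183 in Spt and from 10 to between 0 and 48 in RV. Depth limits Tnni1 and Tnnt1, whose counts were as low as 8 and 18 per library, and groups of 2 to 4 animals limit the failure-stage comparisons.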
